A study of Mus musculus with 60 samples.

Results

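CL6G45 is a subline of P19CL6, which is a substrain of the mouse embryonal carcinoma line P19. Its expression was set against that of P19CL6, on 10 arrays of each strain, so that 20 of the 60 arrays of the series make the comparison. The members were taken by title: 5 labelled biological replicates of CL6G45 and 5 of P19CL6, each read on an Affymetrix MOE430A array and on an MOE430B array. The labels give strain C3H, male sex and embryo as the source for both. The cells had no added agent beyond the culture medium, an alpha-minimum essential medium with fetal calf serum, and were undifferentiated when RNA was taken. The labels do not say how the subline was selected or for what. They also do not say whether the replicates were separate cultures, so the p-values below measure only the spread between these arrays. Values are log2 signals after quantile normalization within each array type, and differences are CL6G45 minus P19CL6.

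Embryonal carcinoma cells are the stem cells of teratocarcinomas and share much of the transcription programme of the epiblast, the embryonic layer that gives rise to the primitive streak and its mesoderm and endoderm. Nodal, Wnt and FGF signals drive that step in the embryo. The unfolded protein response is the programme by which a cell with misfolded protein in its endoplasmic reticulum (ER) makes more chaperones and disposal factors. It works through the transcription factors XBP1 and ATF6, and through the kinase PERK, which slows translation and favours that of ATF4. ATF4 is also used when amino acids run short, and its targets include amino acid transporters, tRNA synthetases and the transcription factor gene Ddit3; that wider programme is called the integrated stress response.

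The identity of the cells was checked first. Pou5f1, the pluripotency factor that defines the line, read 11.40 to 11.48 in CL6G45 and 11.39 to 11.53 in P19CL6. Of 10 markers of embryonal carcinoma, 9 read above the floor on every array of each strain; the floor is a low-signal limit, at a log2 signal of 4.61 on MOE430A and 4.14 on MOE430B. Of 10 cardiomyocyte markers with a probe set, 0 were above it on all arrays of either strain, and Myh6, Myl2, Tnnt2 and Tnni3 were above it on none of the 10 arrays. Summed fibroblast marker signals were 131 to 162 in CL6G45 and 91.2 to 159 in P19CL6, neural ones 379 to 487 and 422 to 483, trophoblast ones 186 to 237 and 188 to 282, and endothelial and blood ones 127 to 172 and 115 to 175. Those ranges overlapped. Primitive endoderm markers summed to 201 to 252 in CL6G45 and 296 to 403 in P19CL6, with no overlap, while Sox7, Afp and Ttr were above the floor on no array. In bulk RNA, fewer cells of a type and less RNA per cell cannot be told apart.

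Some arrays stood apart from their label. P19CL6 replicates 1 and 2 were each other's nearest array (Pearson r = 0.977 over genes). Replicates 3 and 4 were each nearest to P19 replicate 4 (r = 0.975 and 0.974), and replicate 5 to P19 replicate 5 (r = 0.965). Some P19 arrays were known from earlier results to stand apart from their own group. Which of these P19 and P19CL6 arrays are typical of their strain was not tested. The stress genes below read higher, and the streak genes lower, in replicates 1 and 2 than in 3 to 5, so both groups of P19CL6 arrays are given beside the counts. The array labelled CL6G52 replicate 1, of another subline, was nearest to a CL6G45 array (r = 0.967; 0.947 with its own group on average). Of 209 MOE430A probe sets that lay 2-fold apart between CL6G45 and CL6G52 replicates 2 to 5, it was nearer to CL6G45 in 187, and of 90 on MOE430B in 80. In the comparison with P19CL6 it enters through the shared normalization, the choice of probe sets tested and the shared spread. With it left out of the fit, but not of the normalization, 187 genes were called in place of the 182 below. The 5 CL6G45 arrays were each nearest to another CL6G45 array. Median deposited signals were 35.7 to 50.1 on MOE430A and 12 to 15.6 on MOE430B for CL6G45, against 30.4 to 48.3 and 10.8 to 14.1 for P19CL6.

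Of 13181 genes tested, 863 were higher in CL6G45 (6.55%) and 884 lower (6.71%) at an adjusted p under 0.05, by limma, with p-values adjusted by Benjamini-Hochberg within an array type. A gene was called where the difference was also at least 2-fold. This held for 182 genes (1.38%), 61 higher (0.463%) and 121 lower (0.918%). With the signals scaled as deposited, 155 were called, 83 higher and 72 lower; that scaling moved the median of all genes by 0.122, from near 0. The 5 arrays of one strain did not overlap the 5 of the other in 160 of the 182 called genes, beside 13.7% of all genes tested. The largest changes named below were picked from genes without overlap, so their lack of overlap is not a separate result. Many of the called genes are dim: 77 were above the floor on all 10 arrays, 7 on every CL6G45 array and no P19CL6 array, and 21 the reverse. Against P19CL6 replicates 1 and 2 alone 69 genes were called (25 higher, 44 lower), and against replicates 3, 4 and 5 alone 226 (91 higher, 135 lower). Here and below, a fit with 2 P19CL6 arrays is less able to detect a difference of a given size than one with 5. A lower count or a missed threshold in that fit does not show that a difference is absent.

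Genes of the unfolded protein response and its relatives were higher in CL6G45, and 7 of the 12 largest increases among genes measured on all arrays belong to these lists. The lists were chosen with earlier results of these data known, and Xbp1, Aldh1l2 and Cebpb were markers given beforehand. The count is therefore a description and not a test. The promoters of these genes are shown first, because several hold a short sequence by which XBP1 and ATF6 are known to act. The 250 bases before the start site of 27025 genes were searched on both strands for 3 motifs: the ER stress element ERSE (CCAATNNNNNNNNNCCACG), the unfolded protein response element UPRE (TGACGTGG) and the amino acid response element CARE (TTGCATCA), which is bound by ATF4 with C/EBP proteins. The windows below are from RefSeq, build GRCm38.p6, 5′ to 3′ on the strand of the gene, with the match in capitals. Those of Hspa5 to Calr hold an ERSE and belong to genes that rose. Canx holds one and did not pass the test. Herpud1 and Slc7a11 hold a CARE and rose, and Atf3 and Chac1 hold one and did not pass.
Hspa5 (chr2:34771970-34772089, + strand): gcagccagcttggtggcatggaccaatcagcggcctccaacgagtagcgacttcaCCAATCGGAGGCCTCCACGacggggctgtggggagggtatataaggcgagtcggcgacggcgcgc
Derl3 (chr10:75893191-75893310, + strand): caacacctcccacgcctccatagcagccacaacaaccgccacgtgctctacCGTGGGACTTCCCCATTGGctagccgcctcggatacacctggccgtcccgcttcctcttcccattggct
Dnajc3 (chr14:118937776-118937895, + strand): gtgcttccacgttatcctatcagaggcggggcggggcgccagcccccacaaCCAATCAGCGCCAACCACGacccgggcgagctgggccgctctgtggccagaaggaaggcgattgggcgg
Creld2 (chr15:88819469-88819588, + strand): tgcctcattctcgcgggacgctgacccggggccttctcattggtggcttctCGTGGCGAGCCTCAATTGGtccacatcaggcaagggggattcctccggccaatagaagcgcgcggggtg
Ero1b (chr13:12565633-12565752, + strand): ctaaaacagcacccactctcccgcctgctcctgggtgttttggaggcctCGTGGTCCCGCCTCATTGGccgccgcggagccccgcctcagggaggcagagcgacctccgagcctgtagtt
Pdia6 (chr12:17266440-17266559, + strand): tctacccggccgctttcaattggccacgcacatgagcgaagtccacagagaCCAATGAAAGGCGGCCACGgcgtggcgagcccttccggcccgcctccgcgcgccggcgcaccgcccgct
Calr (chr8:84847025-84847144, - strand): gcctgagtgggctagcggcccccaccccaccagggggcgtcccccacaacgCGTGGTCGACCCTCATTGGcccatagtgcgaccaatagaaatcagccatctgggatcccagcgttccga
Canx (chr11:50325750-50325869, - strand): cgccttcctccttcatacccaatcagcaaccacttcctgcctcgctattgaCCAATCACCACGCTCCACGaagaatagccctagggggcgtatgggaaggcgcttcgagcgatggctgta
Herpud1 (chr8:94386261-94386380, + strand): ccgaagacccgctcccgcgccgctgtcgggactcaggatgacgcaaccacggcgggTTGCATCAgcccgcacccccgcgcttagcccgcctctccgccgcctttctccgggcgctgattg
Slc7a11 (chr3:50443614-50443733, - strand): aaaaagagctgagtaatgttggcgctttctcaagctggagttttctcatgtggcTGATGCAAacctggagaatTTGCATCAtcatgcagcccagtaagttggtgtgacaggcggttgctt
Atf3 (chr1:191183380-191183499, - strand): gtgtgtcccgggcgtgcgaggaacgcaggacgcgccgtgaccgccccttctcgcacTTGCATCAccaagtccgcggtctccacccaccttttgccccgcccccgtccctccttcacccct
Chac1 (chr2:119350993-119351112, + strand): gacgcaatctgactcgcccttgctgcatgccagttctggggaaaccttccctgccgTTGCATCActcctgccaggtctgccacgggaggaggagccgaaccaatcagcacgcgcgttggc

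A match is a description of the letters and not of a bound site. Counted by gene, over any of its promoters, the ERSE was found in 35 of 27025 genes (0.13%), the UPRE in 163 (0.603%) and the CARE in 248 (0.918%). Of the 3 ER lists together, 36 genes rose, of which 30 had a promoter that was searched. Of those 30, 9 (30%) held an ERSE, and of 34 ER genes with a promoter that did not rise, 1 did (2.94%). The UPRE went the other way, with 2 of the 30 that rose (6.67%) and 4 of the 34 that did not (11.8%). The CARE was in 1 of the 30 and 0 of the 34. The integrated stress and amino acid lists held a CARE in 5 of 33 risen genes (15.2%) and 3 of 35 others (8.57%). Of the 17 ERSE genes tested, 10 were higher and 0 lower, with a median difference of 0.61; all but Alg12 of these 10 were members of the ER lists. Of 70 CARE genes 11 were higher and 3 lower (median 0.01), and of 103 UPRE genes 9 were higher and 4 lower (median -0.01). These counts stand beside shares of 6.55% and 6.71% over all genes. Against P19CL6 replicates 1 and 2 alone, 9 of the 10 ERSE genes passed.

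**Figure D1:**
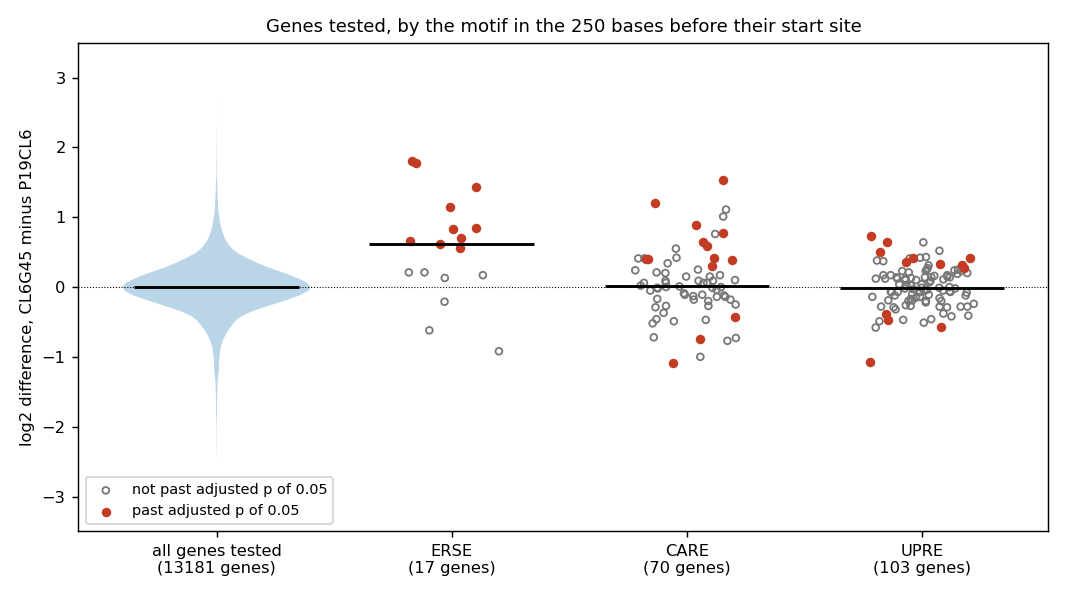
Log2 difference, CL6G45 minus P19CL6, of each tested gene that holds an ERSE, CARE or UPRE in the 250 bases before its start site (1 point a gene, filled where it passed the test), beside the distribution over all 13181 genes tested, of which 6 lie outside the plotted range. Black lines are medians: 0.61 for the 17 ERSE genes, and 0.01 and -0.01 for the CARE and UPRE genes.

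Xbp1, the transcription factor of the IRE1 arm, read 10.48, 10.49, 10.56, 10.60 and 10.51 in CL6G45 replicates 1 to 5 and 9.17, 9.48, 8.65, 8.48 and 8.66 in P19CL6. All CL6G45 arrays were above all P19CL6 arrays, and the CL6G45 arrays lay within a much narrower range (SD 0.05 and 0.42, n = 5 each). The difference was 1.64 ± 0.16 (SE), or 3.12-fold (limma, adjusted p = 2.81e-08). Ddit3, which encodes the stress factor CHOP, read 8.39, 7.97, 8.29, 8.07 and 7.88 in CL6G45. In P19CL6 it read 5.85 and 7.09 in replicates 1 and 2, and 4.27, 4.68 and 4.86 in the other 3. The groups did not overlap, and the difference was 2.77 ± 0.53 (limma, adjusted p = 0.000426); against replicates 1 and 2 alone it was 1.65 with an adjusted p of 0.187. Cebpb, a C/EBP factor that pairs with ATF4 and CHOP, read 7.93 to 8.21 in CL6G45 and 5.96 to 7.19 in P19CL6, a difference of 1.48 ± 0.23 (limma, adjusted p = 2.57e-05).

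Of 22 integrated stress response factors 13 were higher in CL6G45 and 0 lower, with a median difference of 0.52. The increases were led by Ddit3, Cebpb and Xbp1, which the list counts although it is of the IRE1 arm. Next were Trib3, a pseudokinase induced by CHOP (1.43 ± 0.27), and Stc2, a secreted glycoprotein (1.19 ± 0.33). Ppp1r15a, which brings the phosphatase that reverses the translation block, rose by 0.95 ± 0.17. Atf4 itself read 10.90 to 11.08 in CL6G45 and 10.37 to 10.78 in P19CL6 and was higher by 0.45 ± 0.10 (limma, adjusted p = 0.00229; 0.0951 with the deposited scaling). Not all targets passed the test. Atf3, another stress factor, differed by 0.41 ± 0.28 (limma, adjusted p = 0.357) and Chac1, a glutathione-degrading enzyme, by 0.41 ± 0.25 (limma, adjusted p = 0.281), both with overlapping arrays. Their differences moved widely over the alternatives, from -0.16 to 0.79 for Atf3 and from -0.37 to 0.93 for Chac1. Chac1 was higher past the threshold under 1 of 26 (limma, adjusted p = 0.00451). The list depended on which P19CL6 arrays were used: 15 members rose against replicates 3 to 5 alone and 3 against replicates 1 and 2 alone, and 9 with the deposited scaling. Trib3 read 7.43 and 8.06 in those 2 arrays and 6.58 to 6.79 in the others, against 8.38 to 8.81 in CL6G45.

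**Figure D2:**
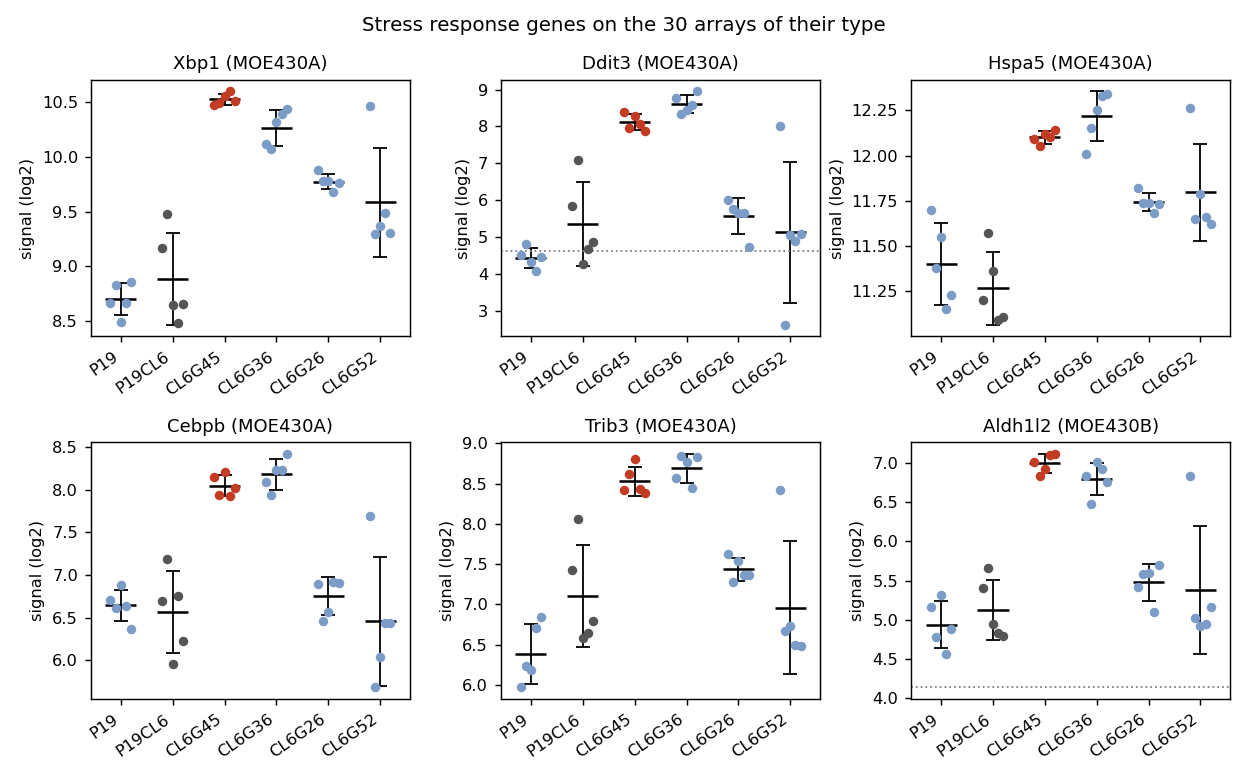
Log2 signal of 6 stress response genes on the 5 arrays of each strain (points), with the mean (line) and SD (bar); the dotted line is the floor where it falls within the panel. CL6G45 (red) lies above every P19CL6 array (dark grey) in all 6 panels and overlaps CL6G36 in 5 of them, Xbp1 being the exception, and 1 CL6G52 array, replicate 1, stands near the CL6G45 level.

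The ER chaperones and folding enzymes changed as a group. Of 26 tested, 18 were higher and 1 lower, with a median difference of 0.62. Hspa5, the main ER chaperone (BiP), read 12.05 to 12.14 in CL6G45 and 11.09 to 11.57 in P19CL6, a difference of 0.83 ± 0.10 (limma, adjusted p = 1.12e-06). Manf, a secreted ER protein, read 10.69 to 10.85 against 9.37 to 9.69 (1.24 ± 0.12). Neither gene overlapped between the strains. The oxidase Ero1b rose by 1.80 ± 0.27, the co-chaperones Dnajc3 and Dnajb9 by 1.43 ± 0.17 and 1.07 ± 0.14, and Creld2 by 1.15 ± 0.14. Smaller increases were seen for Sdf2l1 (0.88), Pdia4 (0.87), Pdia6 (0.70), Calr (0.66) and Hsp90b1 (0.61), which are major folding proteins of the ER. The 2 probe sets of Pdia6 ranged from 0.14 to 0.70 and the 2 of Pdia4 from 0.18 to 0.87, with 1 passing for each. The mean of the Pdia6 probe sets did not pass (limma, adjusted p = 0.0644). The 2 of Ero1b ranged from 0.52 to 1.80, with 1 passing, and the 3 of Hspa5 from 0.1 to 1.2, with 2 passing. The 1 member that was lower, the BiP nucleotide exchange factor Sil1, was above the floor on 1 of the 10 arrays, and with signals raised to the floor its difference was -0.06 and did not pass. The calnexin gene Canx differed by 0.13 ± 0.08 (limma, adjusted p = 0.237). The number higher was 18 against P19CL6 replicates 3 to 5 alone and 14 against replicates 1 and 2 alone, and 12 with the deposited scaling.

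Disposal of ER proteins followed with fewer members. Of 24 genes of ER-associated degradation 8 rose and 0 fell (median 0.17); the number higher was 5 against P19CL6 replicates 1 and 2 alone, 7 against replicates 3 to 5 alone and 6 with the deposited scaling. Derl3, a channel component, read 7.32 to 7.87 in CL6G45 and 5.48 to 5.87 in P19CL6, a difference of 1.78 ± 0.26 (limma, adjusted p = 1.55e-05). Herpud1, which links the ubiquitin ligase to its partners, read 8.65 to 9.20, against 7.89 and 8.36 in P19CL6 replicates 1 and 2 and 6.40 to 7.23 in the others (1.53 ± 0.35; adjusted p = 0.346 by limma against replicates 1 and 2 alone). The ligase Syvn1 rose by 0.84 ± 0.10, Selenos by 0.80 ± 0.10 and the mannosidase-like Edem1 by 0.62 ± 0.13. Of 31 sensors and transport genes 10 rose and 0 fell (median 0.18), among them the COPII coat gene Sec24d (0.73 ± 0.12), the signal peptidase subunit Spcs2 (0.59 ± 0.07) and the sensor Atf6 (0.57 ± 0.13). That count was 5 with the deposited scaling and 4 against replicates 1 and 2 alone. The sensor Ern1, whose product splices Xbp1, differed by -0.19 ± 0.20 (limma, adjusted p = 0.782), and its 2 probe sets ranged from -0.19 to 1.53 with 0 passing.

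Genes of amino acid supply and one-carbon metabolism, which ATF4 is known to control, were also higher. Aldh1l2, a mitochondrial folate enzyme, read 7.01, 6.83, 6.93, 7.10 and 7.11 in CL6G45 and 5.41, 5.66, 4.95, 4.83 and 4.80 in P19CL6. The groups did not overlap, and this was the largest increase among genes that all 10 arrays read above the floor (1.87 ± 0.24, or 3.65-fold; limma, adjusted p = 8.08e-06). Of 16 serine, glycine and one-carbon enzymes 8 rose and 1 fell (median 0.24): Psph rose by 0.64 ± 0.13 and Mthfd2 by 0.43 ± 0.13, while Gcsh, a subunit of the glycine cleavage system, fell by 0.52. Shmt2 rose by 0.91 ± 0.14 at the probe set used, but its 4 probe sets ranged from -0.44 to 0.91 and their mean did not pass. Of 24 genes of amino acid transport and synthesis 11 rose and 0 fell (median 0.38), led by the cystine transporter Slc7a11 (1.21 ± 0.37; not past the threshold without P19CL6 replicate 4 or 5), the transaminase Gpt2 (0.97 ± 0.18) and the transporters Slc1a4 (0.87 ± 0.15) and Slc7a5 (0.80 ± 0.11). Asns, asparagine synthetase, rose by 0.27 ± 0.08 (limma, adjusted p = 0.0251), and missed the threshold under 7 of 26 alternatives, among them leaving out CL6G45 replicate 3, 4 or 5 or P19CL6 replicate 4 (adjusted p up to 0.464). Of 22 tRNA synthetase genes 9 rose and 1 fell (median 0.19), Gars by 0.52 ± 0.11; 0 were higher with the deposited scaling or against P19CL6 replicates 1 and 2 alone. Against those 2 arrays the one-carbon list held 2 increases and the amino acid list 3, and with the deposited scaling 4 and 7.

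Chaperones of the cytosol and mitochondria did not follow. Of 18 tested, 1 rose and 6 fell, with a median of -0.09. Hsph1, a cytosolic co-chaperone, read 8.58 to 9.18 in CL6G45 and 9.54 to 9.91 in P19CL6 and fell by 0.90 (limma, adjusted p = 6.79e-06), while the mitochondrial chaperone Hspa9 rose by 0.47 ± 0.07. With the deposited scaling 1 was lower and 0 higher, and against P19CL6 replicates 1 and 2 alone 3 and 1. Of 17 hypoxia-responsive genes 8 rose and 0 fell (median 0.31), such as Bnip3, a mitophagy receptor (0.73 ± 0.18), and of 20 glycolysis genes 6 rose and 0 fell (median 0.15), such as Aldoc (1.14 ± 0.26). Both counts were 2 with the deposited scaling and 0 against P19CL6 replicates 1 and 2 alone. Over all alternatives Aldoc still differed by 1.03 to 1.22 and Bnip3 by 0.58 to 0.83. In the fit against those 2 arrays their adjusted p-values were 0.112 and 0.228 (limma). Of 23 lysosome genes 8 rose and 2 fell (median 0.19); the proton pump subunit Atp6v0d1 rose by 0.65 ± 0.08, and Laptm4b, a lysosomal membrane protein, fell by 1.44. The lysosome increases numbered 2 with the deposited scaling and 1 against those 2 arrays.

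**Figure D3:**
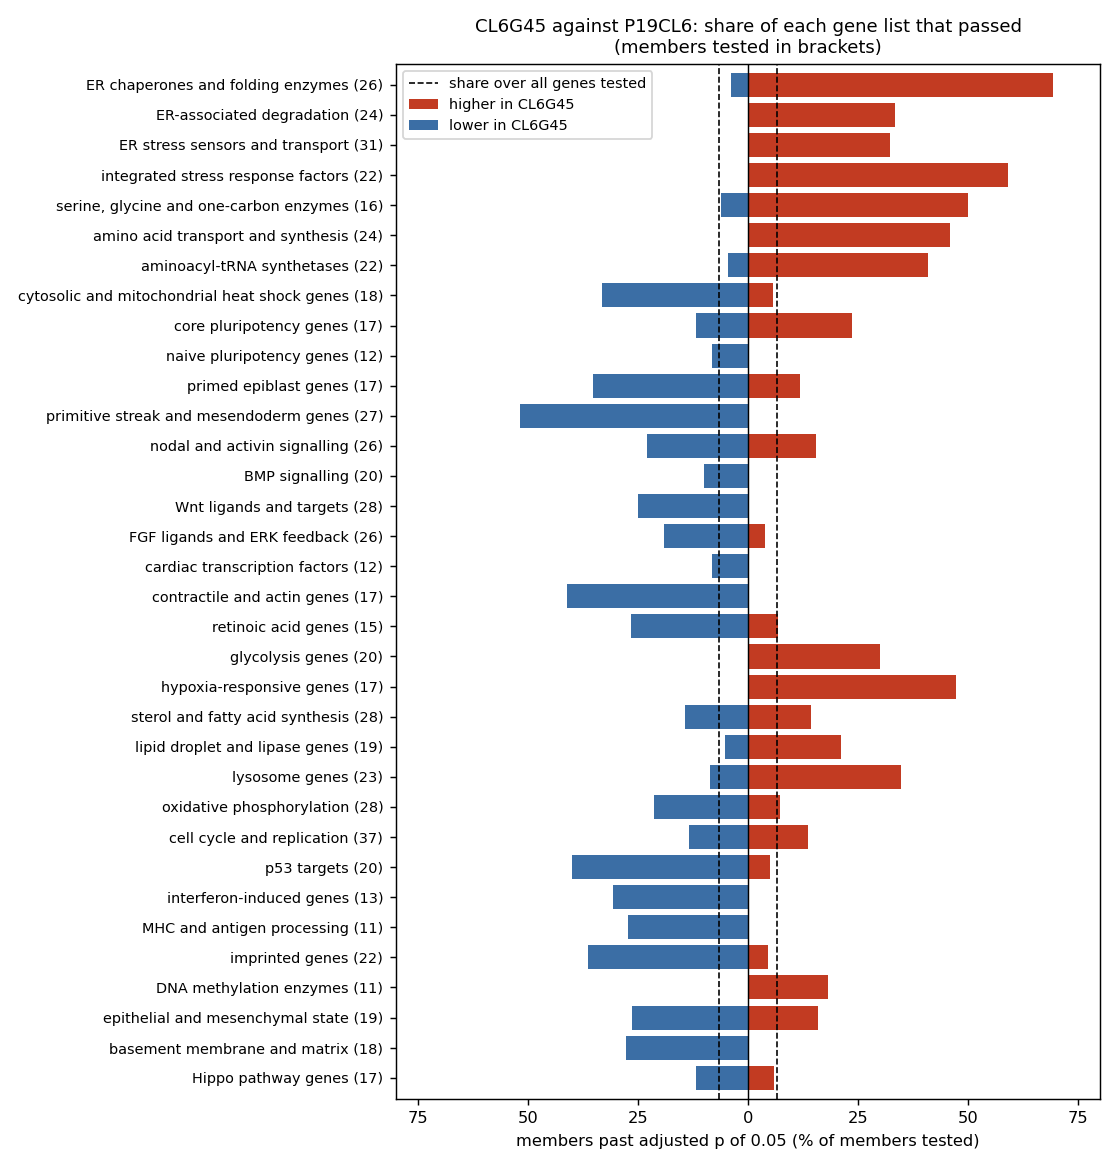
Share of the tested members of each of 34 gene lists that passed an adjusted p of 0.05 and were higher (red, right) or lower (blue, left) in CL6G45 than in P19CL6; dashed lines mark the shares over all genes, 6.55% and 6.71%. The ER, integrated stress and amino acid lists extend to the right, with 18 of 26 ER chaperones, and the streak list to the left, with 14 of 27.

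Several genes with the largest increases lie outside these lists. Galr2, a galanin receptor, read 6.43 to 7.03 in CL6G45 and 4.79 to 5.78 in P19CL6 (1.39 ± 0.19). Snhg12, the host transcript of small nucleolar RNAs, rose by 1.33 ± 0.20, and Mef2b, a MADS-box transcription factor, by 1.30 ± 0.20. The arrays of the strains did not overlap for any of the 3, which the rule for naming them required. Of the 7 called genes above the floor on all CL6G45 arrays and on no P19CL6 array, 6 have a gene name beyond a clone number, and for these only a lower bound on the fold holds, the mean of the higher strain over the floor. Trim66, a chromatin reader, was at least 2.53-fold higher, the orphan receptor Gpr153 at least 1.71-fold, Mfsd6 at least 1.67-fold, Tlcd3b at least 1.5-fold, the Ras effector Rin1 at least 1.38-fold and the orphan receptor Gpr85 at least 1.31-fold. Of these, Gpr85 and Tlcd3b did not pass with signals raised to the floor, and Mfsd6 was the one to pass against P19CL6 replicates 1 and 2 alone.

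The genes that were lower included an activin antagonist and genes of the primitive streak. Fst encodes follistatin, which binds activin. It read 7.16, 7.43, 7.05, 7.43 and 7.0 in CL6G45 and 9.70, 9.46, 10.23, 10.10 and 10.44 in P19CL6. The groups stood far apart, and the gene fell by 2.77 (SE 0.19; 6.84-fold; limma, adjusted p = 5.71e-11). Against P19CL6 replicates 1 and 2 alone it fell by 2.37. Nodal, the ligand that patterns the epiblast, read 9.16 to 9.48 in CL6G45 and 9.80 to 10.29 in P19CL6 and fell by 0.75 (SE 0.12; limma, adjusted p = 3.54e-05). Of 26 genes of nodal and activin signalling 4 were higher and 6 lower (median -0.04). The co-receptor Tdgf1 fell by 0.35, the pseudoreceptor Bambi by 0.61 and the convertase Pcsk6, which cuts Nodal to its active form, by 0.52. The antagonist Lefty1 was higher by 0.59 ± 0.20 (limma, adjusted p = 0.0412), but it missed the threshold under 16 of 26 alternatives, among them leaving out any 1 CL6G45 array (adjusted p up to 0.441). With the deposited scaling 0 were higher and 3 lower, and against P19CL6 replicates 1 and 2 alone 0 and 2.

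Of 27 primitive streak and mesendoderm genes tested 14 were lower and 0 higher (median -1.0), beside 6.71% lower over all genes. Dim genes make up much of this list: 8 of the 27 were above the floor on all 10 arrays. Among those, Mixl1, a homeobox gene of the streak, read 4.82 to 5.24 in CL6G45 and 6.29 to 7.33 in P19CL6 (a fall of 1.77, SE 0.21). Fgf8, the streak FGF, read 5.99 to 6.69 against 7.79 to 8.25 (a fall of 1.78, SE 0.18). Eomes, a T-box factor, read 7.72 to 8.15 against 8.82 to 9.31 (a fall of 1.0, SE 0.15), and Foxa2, of the anterior streak and endoderm, 5.33 to 5.79 against 6.52 to 7.10 (a fall of 1.38, SE 0.18). None of these 4 overlapped between the strains, which the naming rule required of Mixl1, Fgf8 and Foxa2. Apela, the peptide ligand of the apelin receptor, fell by 1.63, and the receptor gene Aplnr was above the floor on all P19CL6 arrays and on no CL6G45 array, at least 2.34-fold lower. Evx1, a homeobox gene of the posterior streak, was likewise at least 3.29-fold lower. Gata6, an endoderm factor, fell by 0.60 (limma, adjusted p = 0.0239; up to 0.358 over the alternatives), and Gata4 differed by -0.94 ± 0.33 (limma, adjusted p = 0.0512). Against P19CL6 replicates 1 and 2 alone 8 were lower, and against replicates 3 to 5 alone 15. The summed primitive endoderm markers, given above, were also lower in CL6G45; they share Foxa2 and Gata6 with this set, and their part in it was not tested.

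**Figure D4:**
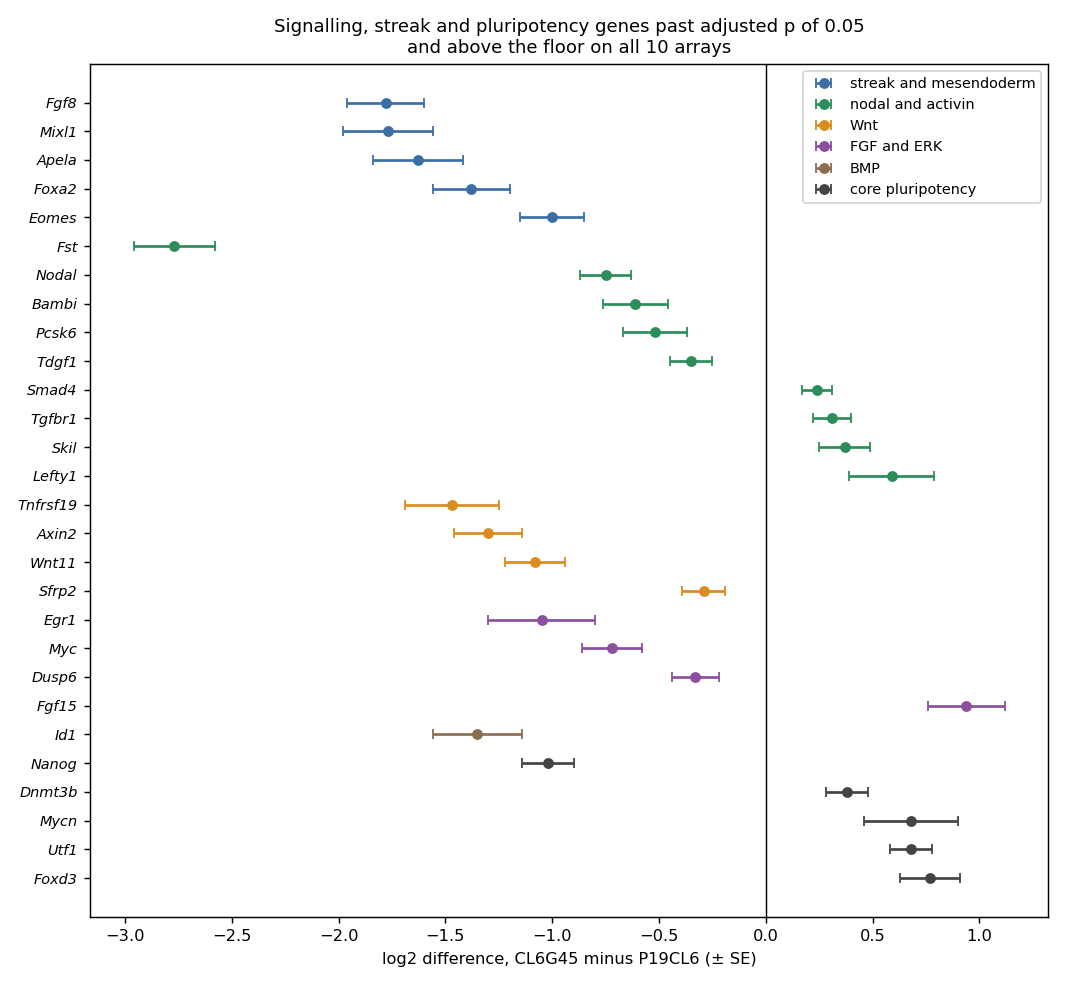
Log2 difference, CL6G45 minus P19CL6, with its standard error, for signalling, streak and pluripotency genes that passed an adjusted p of 0.05 and were above the floor on all 10 arrays, coloured by list (a gene in several lists is drawn once). Fst stands farthest to the left at -2.77, all 5 streak genes drawn are below 0, and Foxd3, Utf1, Mycn, Lefty1 and Fgf15 are among those above 0.

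Of 28 Wnt ligands and targets tested 7 fell and 0 rose (median -0.35), and 16 of the 28 were above the floor on all 10 arrays. Some decreases are counted in more than 1 list: Sp5 is also a streak gene, and Fgf8 is in the streak, FGF and primed epiblast lists. Sp5, a direct target of beta-catenin, read 5.66, 5.28, 7.07, 6.81 and 6.84 in P19CL6 and was under the floor on all CL6G45 arrays, at least 3.30-fold lower. Axin2, the feedback inhibitor, read 6.33 to 6.76 in CL6G45 and 7.56 to 7.99 in P19CL6, a fall of 1.30 (SE 0.16; limma, adjusted p = 1.28e-06). The ligand Wnt11 fell by 1.08 and the receptor Tnfrsf19 by 1.47. These 4 genes did not overlap between the strains, which the naming rule required of Sp5 and Tnfrsf19. The number lower was 4 against P19CL6 replicates 1 and 2 alone. Of 20 BMP genes 2 fell (10%, near the 6.71% over all genes) and 0 rose, with a median of -0.12. Id1, a BMP target that blocks differentiation factors, fell by 1.35, while Id3 differed by -0.24 ± 0.09 (limma, adjusted p = 0.0765). Of 26 FGF and ERK genes 1 rose and 5 fell (median -0.13). Egr1 and Myc, both induced by ERK, fell by 1.05 and 0.72 (adjusted p of 0.0871 and 0.101 with the deposited scaling, by limma). That list held 1 decrease with the deposited scaling and 3 against P19CL6 replicates 1 and 2 alone. Fgf15 was the exception: it read 7.32 to 7.66 in CL6G45 and 5.87 to 7.09 in P19CL6 and was higher by 0.94 ± 0.18 (limma, adjusted p = 0.000467; 0.13 against P19CL6 replicates 1 and 2 alone).

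The pluripotency genes did not move as a group. Of 17 core genes 4 rose and 2 fell (median 0.08). Against P19CL6 replicates 1 and 2 alone 1 was higher and 1 lower, and with the deposited scaling 2 and 1. Pou5f1 differed by 0.02 ± 0.06 (limma, adjusted p = 0.856) and Sox2 by 0.20 ± 0.13 (limma, adjusted p = 0.326). Nanog read 7.62 to 7.99 in CL6G45 and 8.59 to 8.89 in P19CL6, without overlap. Foxd3, a forkhead repressor of the epiblast, rose by 0.77 ± 0.14 (adjusted p = 0.143 by limma against P19CL6 replicates 1 and 2 alone), and Utf1 by 0.68 ± 0.10, although the 3 Utf1 probe sets ranged from -0.67 to 0.73, with 0 passing in the other direction. Of 12 naive pluripotency genes 0 rose and 1 fell (8.33%, near the 6.71% over all genes), with a median of -0.04. Of 17 primed epiblast genes 2 rose and 6 fell (median 0.01). The primed counts were 0 and 3 against P19CL6 replicates 1 and 2 alone. Among the primed epiblast genes, the keratins Krt8 and Krt18, which are paired in simple epithelia, fell by 0.97 and 0.95, and the ephrin receptor Epha2 by 0.84. Cdh1, the epithelial cadherin, was higher by 1.21 ± 0.39 (limma, adjusted p = 0.0283; up to 0.489 over the alternatives).

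The cardiac factor Nkx2-5 differed by 0.02 ± 0.19 (limma, adjusted p = 0.965). Of 12 cardiac transcription factors tested 0 rose and 1, Gata6, fell (8.33%, near the 6.71% over all genes), with a median of -0.09. Of 17 contractile and actin genes 7 fell and 0 rose (median -0.17), led by Tagln, a smooth muscle actin-binding protein (a fall of 1.76), and Tpm1 fell by 0.67; 1 was lower with the deposited scaling and 2 against P19CL6 replicates 1 and 2 alone. The retinoic acid binding protein Crabp2 fell by 1.21, and Meis2, a homeobox gene that retinoic acid induces, was at least 1.99-fold lower. Neither passed against P19CL6 replicates 1 and 2 alone (limma, adjusted p = 0.163 and 0.0669). Of 15 genes of that pathway 1 rose and 4 fell (median 0.14); 0 and 1 did against those 2 arrays, and 0 and 2 with the deposited scaling.

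Other decreases were as large. Ifitm1, an interferon-induced membrane protein also found in germ cells and epiblast, read 5.47, 5.10, 5.13, 5.20 and 5.14 in CL6G45 and 7.09, 7.30, 8.57, 8.47 and 8.84 in P19CL6, a fall of 2.84 (SE 0.28; 7.18-fold). Replicates 1 and 2 of P19CL6 again lay nearest to CL6G45, and against them alone it fell by 1.98 (limma, adjusted p = 0.000289). The zinc finger gene Sall3 read 6.59 to 7.91 in P19CL6 and 1.63 to 2.43, under the floor, in CL6G45, at least 6.77-fold lower. The galectin gene Lgals3 was at least 8.48-fold lower and the homeobox gene Irx3 at least 2.43-fold lower on the same basis. Cited2, a transcription co-regulator, fell by 1.84, S100a10, the annexin A2 partner, by 1.63, the basement membrane collagen Col4a2 by 1.51 and the small GTPase gene Rab38 by 1.47. Their arrays did not overlap between the strains, which the rule for naming them required.

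Of 20 p53 targets 8 fell and 1 rose (median -0.21). Cdkn1a, the cell cycle inhibitor p21, read 6.05 to 6.61 in CL6G45 and 7.22 to 7.85 in P19CL6 (a fall of 1.32), and Bbc3, a pro-apoptotic gene, rose by 0.77 ± 0.16; 2 were lower with the deposited scaling and 0 against P19CL6 replicates 1 and 2 alone. Of 22 imprinted genes 8 fell and 1 rose (median -0.06). Peg3, which is expressed from the paternal copy, read 8.81 to 8.90 in CL6G45 and 9.70 to 10.31 in P19CL6 (a fall of 1.12), and Zdbf2 fell by 1.18. Of 18 matrix genes 5 fell and 0 rose (median 0.01). Of 13 interferon-induced genes 4 fell and 0 rose (median -0.23), and of 11 genes of MHC and antigen processing 3 fell and 0 rose (median -0.22), among them Irf1 (a fall of 0.87) and the peptide-loading gene Tapbp (a fall of 1.14). With the deposited scaling the imprinted, matrix, interferon and MHC lists held 4, 2, 2 and 2 decreases, and against P19CL6 replicates 1 and 2 alone 3, 1, 2 and 1. The Hippo list held 1 increase and 2 decreases of 17 (5.88% and 11.8%, beside 6.55% and 6.71% over all genes), with Amot lower at -1.20 ± 0.12. The epithelial and mesenchymal list held 3 and 5 of 19, the sterol list 4 and 4 of 28, lipid droplet genes 4 and 1 of 19, oxidative phosphorylation 2 and 6 of 28, DNA methylation enzymes 2 and 0 of 11, and cell cycle genes 5 and 5 of 37. With the deposited scaling the oxidative phosphorylation, sterol and cell cycle lists each held 0 in both directions.

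CL6G45 was then set directly against CL6G36, another subline of P19CL6, made of 10 arrays with the same labels for sex, strain and culture. The CL6G45 arrays correlated with the CL6G36 arrays at a mean r of 0.957 to 0.965, and with the P19CL6 arrays at 0.949 to 0.955. Here 67 of 13181 genes were called (0.508%), 33 higher and 34 lower in CL6G45. At an adjusted p under 0.05, 180 were higher (1.37%) and 215 lower (1.63%), 395 in all; that total was 670 with P19 and CL6G52 left out of the fit and 78 with the deposited scaling. Few of the stress genes above passed between these sublines, as few of all genes did. Of the 22 integrated stress factors 0 passed in either direction, and of the 24 degradation genes 0. At shares of 1.37% and 1.63%, lists of this size would hold few or none, so these counts do not set the lists apart. Other lists held more: of 22 tRNA synthetase genes 3 were lower in CL6G45 and 0 higher, and of 23 lysosome genes 6 and 0. Ddit3 differed by -0.50 ± 0.53 (limma, adjusted p = 0.70), Xbp1 by 0.26 ± 0.16 (limma, adjusted p = 0.427) and Aldh1l2 by 0.20 ± 0.24 (limma, adjusted p = 0.881). A missed threshold does not show equal levels. Of the 26 ER chaperones 1 was higher in CL6G45 and 3 lower: Dnajb9 by 0.50, and Dnajb11, Sdf2l1 and Creld2 by -0.68, -0.42 and -0.50. Among the streak genes Mixl1 was higher in CL6G45 than in CL6G36 by 0.85 (limma, adjusted p = 0.0179), beside a fall of 1.77 from P19CL6 to CL6G45.

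The largest differences between CL6G45 and CL6G36 lay outside the stress lists. Arhgap32, which encodes a GTPase-activating protein, read 8.0, 7.80, 7.94, 8.13 and 8.13 in CL6G45, 6.08 to 6.43 in P19CL6 and 6.22 to 6.47 in CL6G36. It was higher in CL6G45 than in each of the other 5 strains, by 1.72 ± 0.17 over P19CL6, 1.66 ± 0.17 over CL6G36, 1.90 ± 0.17 over CL6G26 and 1.64 ± 0.17 over P19 (limma, adjusted p from 2.23e-09 to 1.84e-05 over the 5 comparisons). Of its 2 probe sets 1 passed against P19CL6, the range being 0.76 to 1.72. Depdc5, a subunit of the GATOR1 complex that restrains mTORC1, read 8.23 to 8.42 in CL6G45, 6.74 to 7.14 in P19CL6 and 6.48 to 6.80 in CL6G36, and passed against each of the other 5 strains as well; of its 6 probe sets 2 passed against P19CL6, the range being -0.01 to 1.29. Outside CL6G45, the array labelled CL6G52 replicate 1 read 7.54 for Arhgap32 and 8.45 for Depdc5, while CL6G52 replicates 2 to 5 read 6.22 to 6.49 and 5.98 to 6.07.

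Tmem98 read 8.89 to 9.41 in CL6G45 and 6.59 to 7.30 in CL6G36 (2.43 ± 0.21 higher), and Pdf was higher by 2.01 ± 0.14; neither passed against P19CL6. Tmem59l was higher than in CL6G36 by 2.32 ± 0.16 and also than in P19CL6 by 0.82 ± 0.16. The Notch regulator Dtx1 was higher by 1.38. In the other direction, Crabp2 read 5.08 to 6.11 in CL6G45, 7.63 to 7.87 in CL6G36 and 6.59 to 7.08 in P19CL6, so that the sublines lay on opposite sides of the parental line. Upp1, uridine phosphorylase, did the same, with 7.02 to 7.54 in CL6G45, 8.88 to 9.47 in CL6G36 and 8.32 to 8.53 in P19CL6. H2-DMa, of the class II antigen pathway, differed from CL6G36 by -1.96, Sorcs2 by -1.94, Jcad by -1.87 and Ppp1r1a by -1.19, none of which passed against P19CL6.

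**Figure D5:**
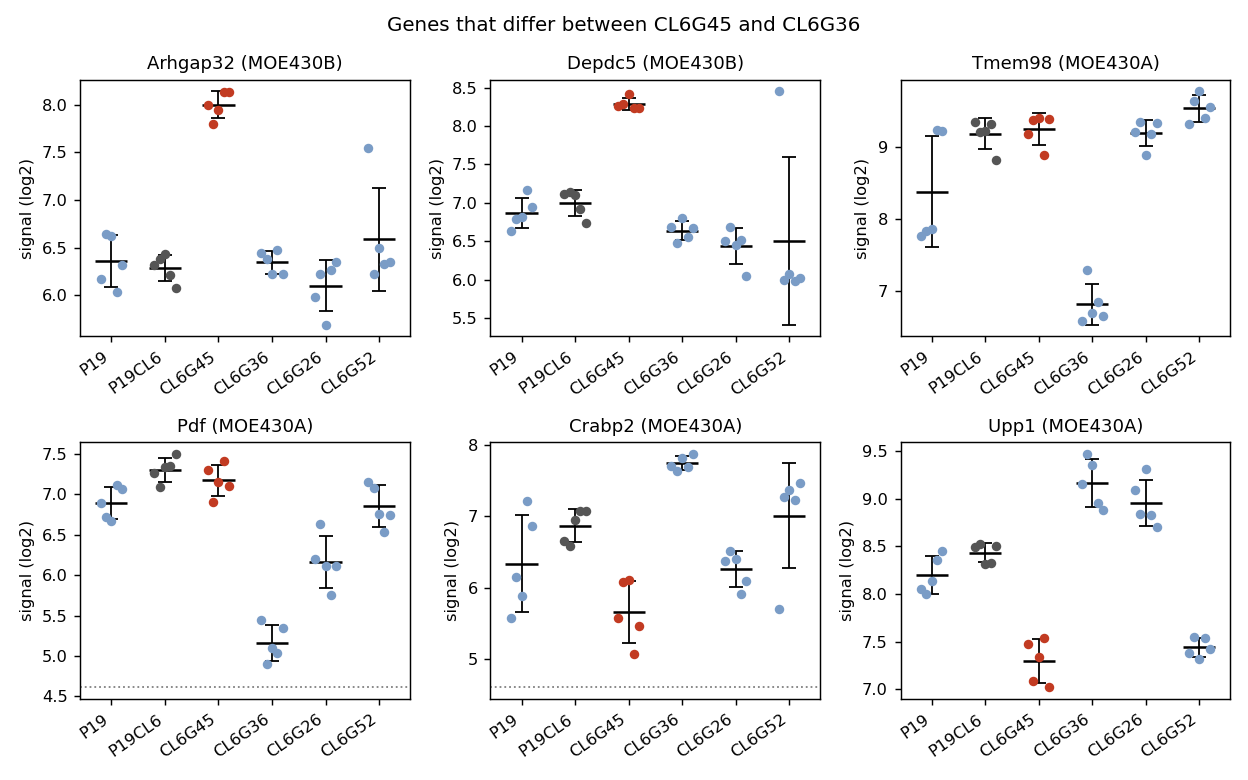
Log2 signal of 6 genes that differ between CL6G45 and CL6G36, on the 5 arrays of each strain (points), with the mean (line) and SD (bar); the dotted line is the floor where it falls within the panel. Arhgap32 and Depdc5 are high in CL6G45 and on 1 CL6G52 array, Tmem98 and Pdf are low in CL6G36, and Crabp2 and Upp1 lie on opposite sides of P19CL6 in CL6G45 and CL6G36.

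Against CL6G26, a further subline, 174 genes were called (1.32%), 92 higher and 82 lower in CL6G45. Stress genes were among the largest increases here: Ddit3 was higher by 2.56 ± 0.53, Stc2 by 1.63 ± 0.33 and Aldh1l2 by 1.51 ± 0.24, with Cep41, a centrosomal protein, higher by 1.65 ± 0.14. Fst differed by -1.99 ± 0.19, Fgf8 by -1.53 ± 0.18, the imprinted gene Mest by -1.54 ± 0.10, the ligand Wnt7a by -1.86 ± 0.34 and the sorting nexin gene Snx7 by -2.07 ± 0.24. All passed (limma, adjusted p from 5.64e-12 to 0.00109). Fst was lower in CL6G45 than in both P19CL6 and CL6G26, while against CL6G36 it differed by 0.22 ± 0.19 (limma, adjusted p = 0.617). These comparisons share the CL6G45 arrays and are not independent of each other.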

How the data were processed

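The deposited files hold 1 signal intensity per probe set and array, scaled by the authors with Affymetrix GCOS, per the submitters' processing notes; the version and scaling target are not given in the sources used here, and CEL files were not used here. MOE430A holds 22690 probe sets, of which 20380 carry 1 gene symbol, and MOE430B 22575, of which 14661 do; probe sets with several or no symbols were not named. Signals were quantile normalized over the 30 arrays of a type, values under 1 were then set to 1, and log2 was taken. The floor was the 40th percentile of signals on MOE430A and the 60th on MOE430B, and a probe set was tested where at least 5 arrays lay above it.

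limma 3.58.1 (R 4.3.3, the data.table package at 1.17.8) was fitted to all 6 strains with a trend in mean signal and 24 residual degrees of freedom. Adjusted p-values are Benjamini-Hochberg over the probe sets of an array type, with 1 probe set kept per gene. Figures and motif searches used Python 3.11.15, pandas 2.3.3 and matplotlib 3.10.9. Tested on simulated data for CL6G45 against P19CL6 (13181 genes), the fit passed 48% of genes changed 1.5-fold, 70% of 2-fold, 100% of 4-fold and 96% of 8-fold, and 0.0616% of unchanged genes. The simulated noise was normal and independent between genes and arrays. It did not hold the split between P19CL6 arrays or the CL6G52 array that stood apart. These shares are therefore not error rates for the real data. The number of arrays limits the precision of each value.

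Named genes were, of called genes whose arrays do not overlap, the 12 largest changes in each direction above the floor on all 10 arrays and the 6 with the smallest adjusted p measured in 1 strain alone; up to 6 passing members of each list with key members; and the 6 largest differences in each direction against CL6G36 and CL6G26. Alg12, Asns, Atf3, Calr, Canx, Chac1, Dnajb11, Eomes, Ern1, Hsp90b1, Id3, Pdia4, Pdia6 and Sdf2l1 were chosen after their values were seen. The comparison, its members and the gene lists were chosen with earlier results of these data known. Alternatives changed the scaling, the treatment of low signals, the filter, the probe set rule, the samples in the fit, the eBayes options and the replicate block, and left out each replicate.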

Additional observations from a re-analysis of the deposited data

Results flagged for a closer look

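The subline CL6G45 differed from CL6G36 in their own direct test for 12 genes named in the text, whose effects against P19CL6 therefore differ between the sublines (log2, CL6G45 minus CL6G36). Those higher in CL6G45 were Tmem98 (2.43), Tmem59l (2.32), Pdf (2.01), Arhgap32 (1.66), Depdc5 (1.65) and Dtx1 (1.38). Those lower were Crabp2 (-2.08), H2-DMa (-1.96), Sorcs2 (-1.94), Upp1 (-1.87), Jcad (-1.87) and Ppp1r1a (-1.19); the last had an adjusted p of 0.0475 by limma and missed the threshold under most alternatives.

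In 14 of 258 groups of 5 arrays, 8 of CL6G45 and 6 of P19CL6, 1 array stood apart, with a gap to its neighbour above 0.71 of the group's range (Dixon's criterion); chance gives about 1 in 20 groups. Among CL6G45 arrays these were replicate 1 for Ifitm1 (5.47) and Sdf2l1 (8.45), replicate 2 for Mfsd6 (5.14) and Myc (8.30), replicate 4 for Cdh1 (7.28) and Gata4 (2.16), and replicate 5 for Eomes (7.72) and Sall3 (2.43). Among P19CL6 arrays they were replicate 2 for Dnajc3 (6.45) and Hsp90b1 (9.93), replicate 4 for Asns (10.61) and Rab38 (7.63), and replicate 5 for Rin1 (0.98) and Tmem98 (8.82). The values for Gata4, Sall3 and Rin1 lie under the floor.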

How the results depend on the processing

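No difference past the threshold changed direction under the alternatives. Among differences from P19CL6 that did not pass, those of Atf3 (-0.16 to 0.79), Chac1 (-0.37 to 0.93), Ern1 (-0.26 to 0.67), Pou5f1 (-0.06 to 0.05), Nkx2-5 (-0.15 to 0.28), Tmem98, Pdf, Jcad and Cep41 took either sign. The counts depended most on dim genes. With signals raised to the floor, the genes called were 110 against P19CL6 (69 lower), 40 against CL6G36 (18 lower) and 100 against CL6G26 (55 higher, 45 lower). With 16 added to each signal they were 84 (30 higher, 54 lower), 33 (19 higher, 14 lower) and 76 (35 higher, 41 lower). With the deposited scaling, 155 were called against P19CL6, of which 130 were shared with the 182 and 72 were lower; 57 were called against CL6G36, with 16 lower, and 170 against CL6G26. That scaling left 385 genes past the adjusted p in place of 1747, and 19 of the 129 named genes crossed the threshold. The fit against P19CL6 replicates 1 and 2 alone, which was chosen after seeing the data, called 69 genes (25 higher, 44 lower), with 326 past the adjusted p, and 44 of the 129 named genes no longer passed: Aldoc, Alg12, Asns, Atf4, Atf6, Bambi, Bnip3, Cdh1, Cdkn1a, Col4a2, Crabp2, Ddit3, Depdc5, Dtx1, Evx1, Fgf15, Foxd3, Gars, Gata6, Gpr153, Gpr85, Gpt2, Herpud1, Krt18, Lefty1, Meis2, Mest, Mthfd2, Mycn, Pcsk6, Pdia4, Ppp1r15a, Psph, Rin1, Sil1, Slc1a4, Slc7a11, Stc2, Tdgf1, Tlcd3b, Tmem59l, Trib3, Trim66 and Wnt7a. With fewer P19CL6 arrays in that fit the threshold is harder to reach, so a gene listed here need not have lost its difference. The causes of these changes were not tested. Leaving out 1 array at a time gave 166 to 199 genes against P19CL6 (51 to 74 higher, 110 to 129 lower), 59 to 71 against CL6G36 (30 to 38 and 26 to 35) and 156 to 181 against CL6G26 (74 to 101 and 76 to 91). A pairing check of same-numbered replicates of CL6G45 and P19CL6 gave r of -0.04 to 0.04, unlike the whole-array r above. These values show no pairing by number, and a shared day or batch was not tested. With the replicate number as a block 181 genes were called, 179 of them shared. The other alternatives kept each count of called genes within 1.5 times the reported one; the 395 genes past the adjusted p against CL6G36 became 670 with P19 and CL6G52 left out and 78 with the deposited scaling. Genes near the floor have the least certain folds.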

Other observations

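Over the means of the 6 strains, the genes whose pattern was most like that of Xbp1 were Bag6 (Pearson r = 0.9945), Dnajc3 (r = 0.9891) and Cops6 (r = 0.9868). Those most like Fst were Tm9sf4 (r = 0.9963), Scrib (r = 0.9897) and Pip4k2b (r = 0.9888). These correlations rest on 6 means and the same arrays, and are given as a description.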
